A study of Mus musculus with 9 samples.

Results

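The comparison described here sets 3 mouse retinas sampled at postnatal day 12 (P12) against 3 others of the same age, of 9 retinal samples in the series. The off-baseline set held the arrays labelled control 2, control 3 and hyperoxic 1. The baseline set held those labelled control 1, hyperoxic 2 and hyperoxic 3. The sets were not taken from the treatment labels. They were chosen by the authors' deposited ratios, in which the median over these last 3 arrays was 1 at 100% of 46613 probes, within 0.0015. Of 84 possible sets of 3 arrays, 20 of them all from P12, no other set did this. The next set, hyperoxic 1, 2 and 3, had a median of 1 at 42.7% of probes, and the one after it, control 2 with hyperoxic 2 and 3, at 41.2%.

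All mice were C57BL/6N, and each sample pooled the 2 retinas of 1 mouse. Hyperoxic mice had breathed 75% oxygen for 5 days, starting at P7, and were sampled at P12 on leaving it. Mice labelled hypoxic had the same exposure, then 12 hours of room air, and were sampled at P12.5. Control mice were normal P12 mice, and the series holds no normal mice of P12.5. The labels therefore cross the sets, with 2 control arrays and 1 hyperoxic array off the baseline and 1 control array and 2 hyperoxic arrays in it.

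Labels may have been exchanged between these arrays. A second deposited table carries the same split. Each detection p-value column in it should fall as the signal of its own array increases, but 5 of 9 columns stood beside another array's signal. The columns beside hyperoxic 1, 2 and 3 followed the signals of control 2, control 3 and hyperoxic 1, which are the off-baseline set. The columns beside control 1, 2 and 3 followed control 1, hyperoxic 2 and hyperoxic 3, which are the baseline set. Against its matching signal a column moved the wrong way at 0.0136% to 0.0154% of steps, and against any other array at 9.39% or more. Whether the labels or the columns were exchanged, or neither, cannot be told apart from these files. All arrays keep their deposited labels below, and no direction is read as an effect of oxygen.

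**Figure D1:**
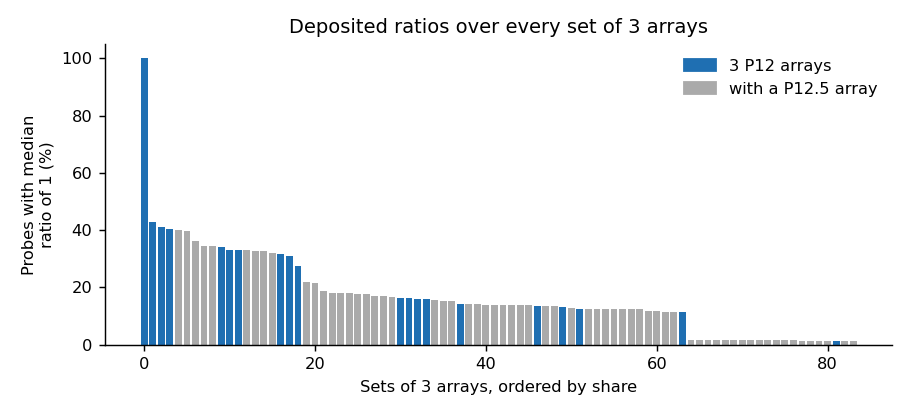
Share of 46613 probes (%) at which the median deposited ratio over a set of 3 arrays was 1, for every set of 3 of the 9 arrays, ordered by share. The baseline set alone reached 100%, and the next reached 42.7%.

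One array stood apart. Hyperoxic 1, of the off-baseline set, had a median raw signal of 163.6, against 67.4 to 82.3 on the other 8 arrays. Probes detected made up 30.6% on hyperoxic 1 and 42.1% to 44.5% on the others. Its median deposited ratio was 0.903, against 0.996 to 1.011. Among the P12 arrays the first principal component held 59.0% of the variance and placed hyperoxic 1 at 62.26 and the other 5 between -27.79 and -0.45. Counts over all genes and over the vascular lists are therefore given with and without hyperoxic 1, as are those of other lists where they differ. By Xist and Eif2s3y, 1 array of each P12 set had a female pattern, control 3 off the baseline and control 1 in it. The retinal label held for all arrays: rod genes Gnat1 and Sag, the cone opsin gene Opn1mw and the inhibitory neuron gene Gad1 were detected on every P12 array.

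Retinal blood vessels consist of endothelial tubes wrapped by pericytes and seated on a shared basement membrane. In the mouse they spread over the inner retina and down into it after birth. In oxygen-induced retinopathy, high oxygen stops this growth and prunes young capillaries, and the return to room air leaves under-perfused tissue short of oxygen, with VEGF and other hypoxia genes induced. Endothelial and pericyte genes are used as markers of vessel tissue in such retinas. In whole retina, fewer cells of a type and less RNA per cell cannot be told apart.

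Levels are log2 intensities after background correction and quantile scaling, and a difference is the off-baseline mean minus the baseline mean, with its standard error (SE) from limma. A gene was called where limma's Benjamini-Hochberg adjusted p was under 0.05, and each gene was taken by its most intense tested probe. Of 11485 genes tested, 494 were called, which is 4.3%. Of these, 312 were lower off the baseline (2.72% of genes tested) and 182 higher (1.58%). Since the split was itself drawn from these arrays, the calls describe the sets and test no hypothesis. Without hyperoxic 1, 356 genes were lower (3.1%) and 215 higher (1.87%), among them 285 of the 312 and 146 of the 182. The sets did not overlap at any of the 494 called genes, nor at 28.9% of all genes tested. Among probes, 284 were called higher and 469 lower, with a median of -0.03 over all tested probes. Median centring in place of quantile scaling called 14 higher and 319 lower, with that median at -0.25. The deposited ratios gave 2 higher and 33 lower, with a median of -0.20, and since they chose the sets they are no independent check.

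At the edge of the call, Col6a1 (0.43 ± 0.10), Nt5dc2 (0.42 ± 0.10) and Frmpd1 (-0.75 ± 0.18) were the last genes inside it. Zc3h15 (-0.67 ± 0.16), Tbc1d25 (0.53 ± 0.13) and Stag1 (-0.69 ± 0.17) were the first outside. The values on either side of that edge are alike in size.

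Vascular genes were 9 of the 12 named genes with the largest lower differences, and all called vascular genes were lower off the baseline. Of 121 tested genes in 5 vascular lists, 50 were called lower (41.3%, against 2.72% of all tested genes) and 0 higher, and the other 71 were not called. Their median difference was -0.43, against 0.00 over all tested genes, and -0.39 without hyperoxic 1, when 49 were called lower and 0 higher. Of the 68 called genes lower by more than 1 on the log2 scale, 26 were in a vascular list. Vascular genes were 121 of the 11485 genes tested and 16.03% of the called lower genes. Outside these lists lay 262 lower and all 182 higher genes.

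Promoters of the vascular and heat shock genes with the largest differences are shown because every called gene of each group was lower off the baseline. Each is a window of 300 bases, most of it before the gene start, from RefSeq on GRCm38.p6, read 5′ to 3′ on the gene's strand. Capitals mark matches to an ETS motif (CGGAAG), to a heat shock element (GAANNTTC or TTCNNGAA) or to the endoplasmic reticulum stress element (ERSE), each searched on both strands. Rgs5 lies at chr1:169655251-169655550 (+ strand), Serpinh1 at chr7:99353190-99353489 (- strand), Hspa5 at chr2:34771840-34772139 (+ strand) and Hsp90b1 at chr10:86705395-86705694 (- strand).
Rgs5: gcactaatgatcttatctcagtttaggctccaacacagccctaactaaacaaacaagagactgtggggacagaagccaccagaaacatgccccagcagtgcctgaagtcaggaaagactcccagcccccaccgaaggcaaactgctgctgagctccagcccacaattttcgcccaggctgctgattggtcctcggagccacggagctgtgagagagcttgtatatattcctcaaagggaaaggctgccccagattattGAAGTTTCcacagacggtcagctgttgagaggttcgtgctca
Serpinh1: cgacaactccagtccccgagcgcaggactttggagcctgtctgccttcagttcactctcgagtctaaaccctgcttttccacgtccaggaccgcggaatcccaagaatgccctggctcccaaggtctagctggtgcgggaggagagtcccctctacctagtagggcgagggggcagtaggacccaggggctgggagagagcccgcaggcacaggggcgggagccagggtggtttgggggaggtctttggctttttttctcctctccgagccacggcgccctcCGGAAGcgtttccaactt
Hspa5: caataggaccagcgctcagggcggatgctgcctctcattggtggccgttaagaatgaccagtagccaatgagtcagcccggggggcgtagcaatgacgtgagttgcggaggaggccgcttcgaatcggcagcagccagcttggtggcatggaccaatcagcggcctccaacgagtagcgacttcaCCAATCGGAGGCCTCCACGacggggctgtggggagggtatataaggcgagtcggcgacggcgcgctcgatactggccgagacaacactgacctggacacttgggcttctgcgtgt
Hsp90b1: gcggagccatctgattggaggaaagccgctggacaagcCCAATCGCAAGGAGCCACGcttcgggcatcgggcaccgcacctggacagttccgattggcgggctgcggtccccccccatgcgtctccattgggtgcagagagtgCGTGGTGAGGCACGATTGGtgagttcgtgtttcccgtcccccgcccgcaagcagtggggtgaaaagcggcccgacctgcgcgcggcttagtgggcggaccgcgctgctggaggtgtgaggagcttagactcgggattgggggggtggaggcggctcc
The Rgs5 window held 1 heat shock element, the Serpinh1 window 1 ETS motif, the Hspa5 window 1 ERSE and the Hsp90b1 window 2. The windows of Slc38a5 and Robo4 held none of the 3 motifs. Among 27025 mouse promoters of the same length, 17.2% held the ETS motif, 15.1% the heat shock element and 0.13% the ERSE. Of the 50 called vascular genes, 31 had a promoter in the table, 3 of them with the ETS motif (9.68%), 5 with the heat shock element (16.1%) and 0 with the ERSE. All 4 called heat shock genes had a promoter. Of these, 2 held the ETS motif (50%), 1 the heat shock element (25%) and 2 the ERSE (50%). These are matches of letters and not measured binding.

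Endothelial identity genes were the most shifted list. Of 38 tested, 26 were called lower (25 without hyperoxic 1), 0 higher and 12 not called. The median difference was -0.88 with or without hyperoxic 1. Averaged over the 38 genes, the level was 6.45 to 6.56 on the off-baseline arrays and 7.32 to 7.38 on the baseline arrays, so that the lowest baseline array stood above every off-baseline one.

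Cd93, a surface glycoprotein of endothelial cells encoded on chromosome 2, had levels of 6.87, 6.74 and 6.01 on control 2, control 3 and hyperoxic 1, against 8.60, 8.40 and 8.30 on control 1, hyperoxic 2 and hyperoxic 3. The difference was -1.89 ± 0.20 with all arrays and -1.63 without hyperoxic 1. All 3 off-baseline arrays were low, whichever label they carried, and hyperoxic 1 was the lowest. In the same array order, Pecam1, the endothelial adhesion molecule CD31, had 6.42, 6.43 and 5.68 off the baseline and 7.65, 7.57 and 7.74 in it, a difference of -1.48 ± 0.18. Cdh5, the cadherin of endothelial junctions, had 5.06, 5.39 and 5.21 off the baseline and 6.82, 6.61 and 6.38 in it, a difference of -1.38 ± 0.14. For Cdh5 the hyperoxic 1 value lay between those of both controls, and the difference without it was again -1.38. Cdh5 was detected on 1 of the 3 off-baseline arrays, so that these levels and the size of its difference may rest near the detection limit.

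Emcn, the endothelial sialomucin endomucin, had 6.04, 5.78 and 5.67 off the baseline and 7.56, 7.33 and 7.59 in it (-1.66 ± 0.12). Robo4, an endothelial guidance receptor, had 6.42, 6.28 and 6.06 off the baseline and 7.99, 8.14 and 8.10 in it (-1.83 ± 0.13), but its second, dimmer probe differed by 0.39 ± 0.18 and was not called. Adgrl4 (-1.53 ± 0.17), an adhesion G protein-coupled receptor, Ptprb (-1.34 ± 0.13), the vascular endothelial phosphatase, and Sox18 (-1.37 ± 0.12), a transcription factor of developing vessels, had non-overlapping sets as well. Pecam1, Emcn, Adgrl4 and Sox18 were detected on 2 of the 3 off-baseline arrays. Their lowest levels may lie near the detection limit, and no bound was taken for them. Some lower genes were detected on no off-baseline array, so that only a bound holds for them. Eng, a co-receptor for TGF-beta family ligands, was at least 1.76-fold lower, Cd34 at least 1.62-fold, the angiopoietin receptor gene Tek at least 1.41-fold and Sox17 at least 1.29-fold. Pcdh12, an endothelial protocadherin that was in no list, was at least 2.21-fold lower.

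The VEGF receptor genes Kdr and Flt1 were among the 12 endothelial genes that were not called. Kdr, the main signalling receptor of VEGF, had 6.41, 6.04 and 5.29 off the baseline and 5.83, 5.94 and 5.99 in it. Its sets overlapped, with control 2 the highest P12 array and hyperoxic 1 the lowest, and the difference was -0.01 ± 0.23, or 0.30 without hyperoxic 1. Kdr was detected on 2 of the 3 off-baseline arrays. Flt1, which binds VEGF with high affinity, had 9.59, 9.67 and 9.86 off the baseline and 9.32, 9.24 and 9.38 in it. Its difference of 0.39 ± 0.11 was not called, and its second probe differed by -0.01 ± 0.15. Tie1 had a probe but was not tested, being detected on too few arrays.

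**Figure D2:**
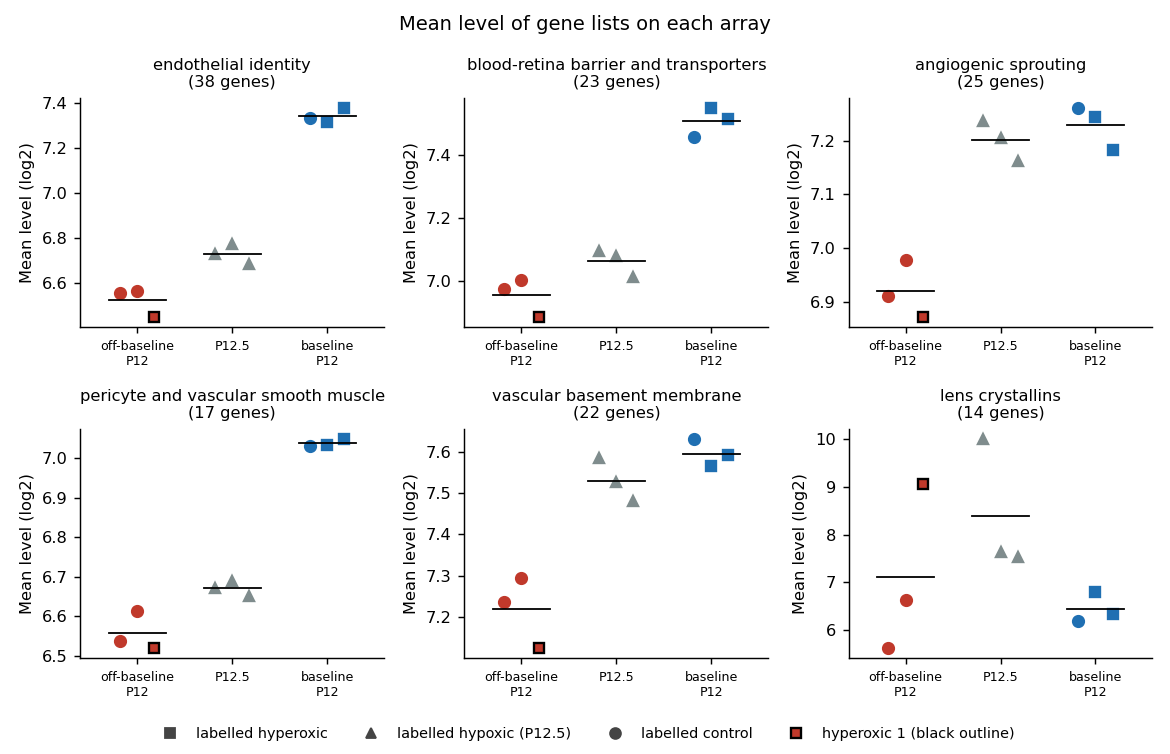
Mean log2 level of 6 gene lists on each array, 1 point per array, with the off-baseline P12, the P12.5 and the baseline P12 arrays from left to right. For the endothelial list the off-baseline arrays lay at 6.45 to 6.56, the P12.5 arrays at 6.68 to 6.77 and the baseline arrays at 7.32 to 7.38.

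Genes of the blood-retina barrier were lower as a list too. Of 23 tested, 10 were called lower (9 without hyperoxic 1), 0 higher and 13 not called. The median was -0.50, or -0.42 without hyperoxic 1. Slc38a5, an amino acid transporter encoded on the X chromosome, had 6.86, 7.04 and 6.91 on control 2, control 3 and hyperoxic 1, against 8.88, 8.73 and 8.84 on control 1, hyperoxic 2 and hyperoxic 3. Its difference of -1.88 ± 0.14 was large beside a within-set SD of 0.09 off the baseline and 0.08 in it (n = 3 each). The baseline signal was 3.67 times the off-baseline one, and the arrays fell into 2 narrow bands.

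Foxq1, a forkhead transcription factor, differed by -1.74 ± 0.20 and had its lowest level, 4.88, on hyperoxic 1. It was detected on 2 of the 3 off-baseline arrays. Slco1c1, the thyroid hormone transporter of barrier endothelium, had 6.06, 6.46 and 6.29 off the baseline and 7.05, 7.45 and 7.43 in it (-1.04 ± 0.15). Mfsd2a, which carries lipids and restrains vesicle traffic across barrier endothelium, had 7.01, 7.38 and 7.37 off the baseline and 8.19, 8.05 and 8.30 in it (-0.92 ± 0.13). Pltp, a phospholipid transfer protein (-1.05 ± 0.14), and Slc40a1, the iron exporter ferroportin (-0.89 ± 0.11), were also called. Slc2a1, the glucose transporter of the barrier and of much of the neural retina, had 11.24, 11.36 and 11.01 off the baseline and 11.17, 11.27 and 11.33 in it, with overlapping sets and a difference of -0.05 ± 0.12. No probe for the claudin gene Cldn5 was named in the annotation used.

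Pericyte and smooth muscle genes showed the largest single difference. Of 17 tested, 7 were called lower (8 without hyperoxic 1) and 0 higher. The median was -0.40 (-0.37 without hyperoxic 1). Rgs5, a regulator of G protein signalling typical of pericytes and encoded on chromosome 1, had 5.66, 6.15 and 4.93 off the baseline, against 7.77, 8.13 and 7.46 in it. The difference was -2.21 ± 0.27, the largest of all tested genes, with a baseline signal 4.62 times the off-baseline one, and it was -1.88 without hyperoxic 1. Higd1b, another pericyte gene, had 6.05, 6.21 and 5.51 off the baseline and 7.69, 7.56 and 7.83 in it (-1.77 ± 0.18). In both genes hyperoxic 1 was the lowest of the 6 arrays, yet control 2 and control 3 also lay below all baseline arrays. Each gene was detected on 2 of the 3 off-baseline arrays. The lowest level may thus lie near the detection limit, which leaves the size of the difference uncertain.

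Acta2, smooth muscle actin (-0.88 ± 0.17), and Vtn, which encodes vitronectin and is made by pericytes in neural tissue (-0.76 ± 0.14), were called as well. The genes for the pericyte potassium channel, Abcc9 and Kcnj8, were detected on no off-baseline array and were at least 1.29-fold and 1.17-fold lower. Pdgfrb, the receptor that recruits pericytes, had 5.62, 5.84 and 5.66 off the baseline and 5.77, 6.36 and 6.17 in it. Its sets overlapped and its difference of -0.40 ± 0.15 was not called. Cspg4, the proteoglycan NG2, differed by 0.18 ± 0.13 and was not called.

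Of 22 tested genes of the vascular basement membrane, 6 were called lower and 0 higher, with a median of -0.26 (-0.27 without hyperoxic 1). Col4a1, a chain of type IV collagen encoded on chromosome 8, had 8.39, 9.01 and 8.80 off the baseline and 9.80, 9.87 and 9.93 in it (-1.13 ± 0.15), with control 2 the lowest. Its partner chain Col4a2 differed by -0.90 ± 0.11, the heparan sulfate proteoglycan perlecan, Hspg2, by -1.10 ± 0.13, and the linker protein nidogen, Nid1, by -0.86 ± 0.12. Serpinh1, the collagen chaperone shown above with its promoter, had 8.65, 8.67 and 8.63 off the baseline and 9.40, 9.47 and 9.37 in it (-0.76 ± 0.10).

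The sprouting list had the smallest median of the 5 vascular lists with all arrays, though not under every alternative. Of 25 tested, 5 were called lower, 0 higher and 20 not called, with a median of -0.20 (-0.26 without hyperoxic 1). Aplnr, the apelin receptor, had 5.42, 5.76 and 5.19 off the baseline and 6.95, 6.86 and 6.93 in it (-1.46 ± 0.19). Nid2 (-1.08 ± 0.14), Ramp2, the partner protein of the adrenomedullin receptor (-0.99 ± 0.12), Pdgfb, the endothelial ligand that recruits pericytes (-0.92 ± 0.13), and the chemokine gene Cxcl12 (-0.72 ± 0.12) completed the called members. For Cxcl12 the second probe differed by 0.23 ± 0.15.

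Other ligands of the list were not called. Vegfa, which hypoxia is known to induce, had 9.62, 9.99 and 9.69 off the baseline and 10.26, 10.24 and 9.94 in it, overlapping at 1 array of each set, and its difference of -0.38 ± 0.14 was not called. Angpt2, the destabilising angiopoietin, differed by 0.02 ± 0.12, and Adm, the vasoactive peptide adrenomedullin, by -0.12 ± 0.14. The tip cell genes Esm1 and Apln had probes that were not tested.

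**Figure D3:**
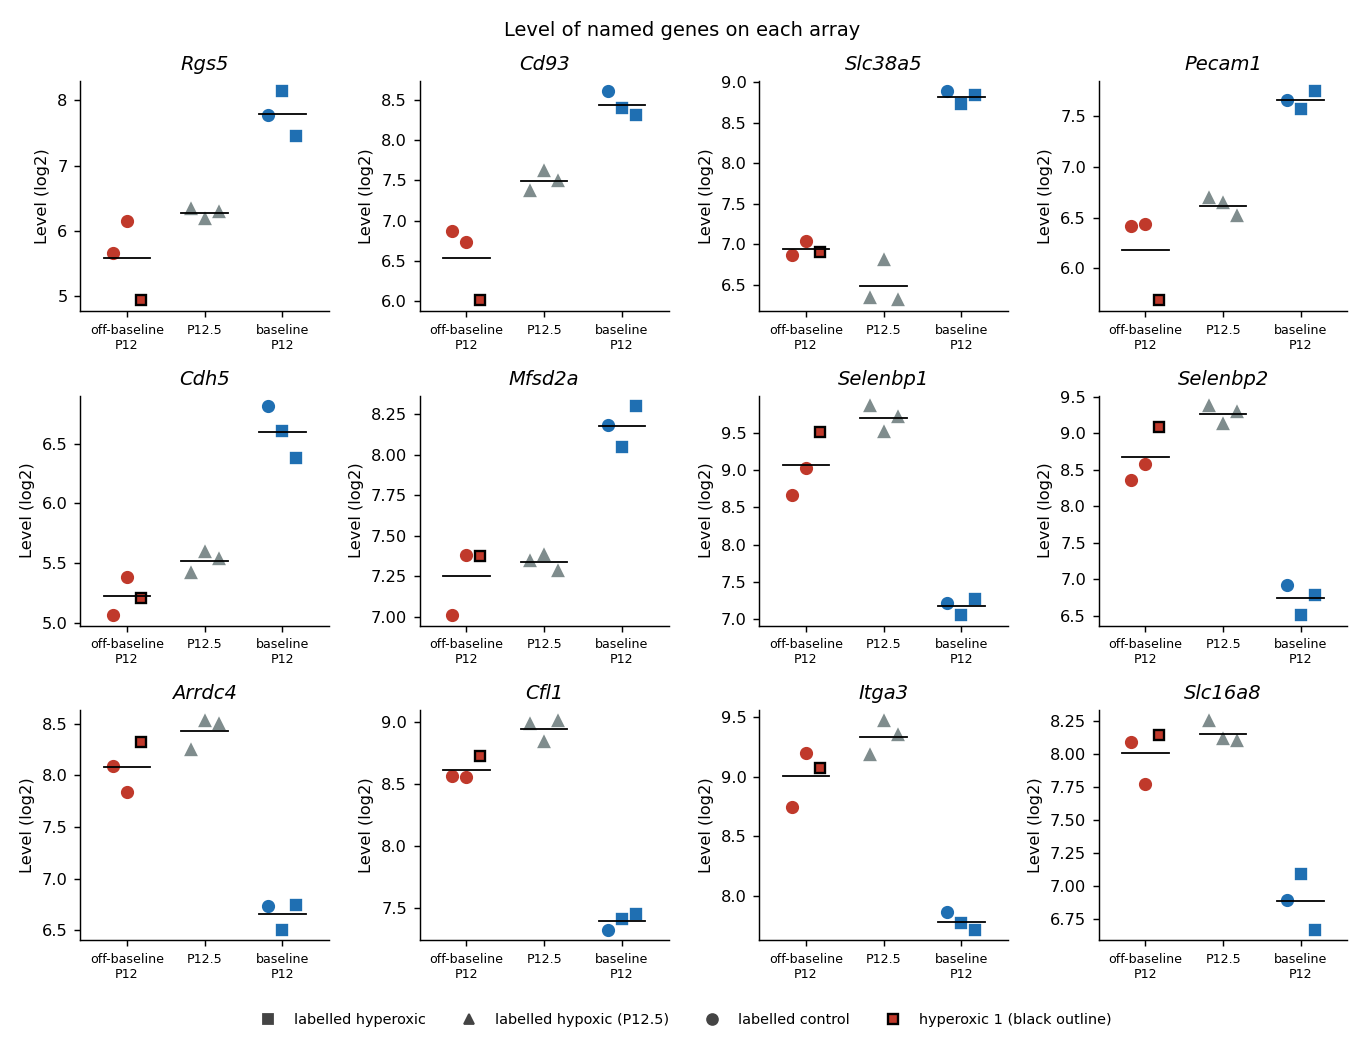
Log2 levels of 12 named genes on each array, 1 point per array, with the off-baseline P12, the P12.5 and the baseline P12 arrays from left to right. Rgs5, Cd93, Slc38a5, Pecam1, Cdh5 and Mfsd2a were lower on all 3 off-baseline arrays than on any baseline array, and Selenbp1, Selenbp2, Arrdc4, Cfl1, Itga3 and Slc16a8 were higher.

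The higher genes lay outside the vascular lists and were spread over several others or over none. Selenbp2 and Selenbp1, a pair of closely related selenium-binding proteins of sulfur metabolism, led them, and their probes may share signal. Selenbp1 had 8.67, 9.02 and 9.51 on control 2, control 3 and hyperoxic 1, against 7.22, 7.06 and 7.27 on control 1, hyperoxic 2 and hyperoxic 3 (1.88 ± 0.19, or 1.66 without hyperoxic 1). Selenbp2 had 8.36, 8.58 and 9.09 off the baseline and 6.92, 6.51 and 6.79 in it (1.94 ± 0.18). Hyperoxic 1 was the highest array for both, and the controls of the same set were also above every baseline array.

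Arrdc4, an arrestin-domain protein of the family of Txnip that limits glucose uptake, had 8.09, 7.84 and 8.32 off the baseline and 6.73, 6.51 and 6.75 in it (1.42 ± 0.14). Txnip itself had 8.93, 8.79 and 8.42 off the baseline and 8.24, 8.03 and 8.11 in it. Its difference of 0.59 ± 0.15 was not called with all arrays and was called, at 0.73, without hyperoxic 1. Cfl1, the actin-severing protein cofilin, had 8.56, 8.55 and 8.72 off the baseline and 7.32, 7.41 and 7.45 in it (1.22 ± 0.10).

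Slc16a8, the lactate transporter of the pigment epithelium, was higher by 1.12 ± 0.14, while Tyrp1, a melanin synthesis gene of the same list, was lower by 0.77 (-0.77 ± 0.16). Of the 14 tested pigment cell genes these were the called ones, and the list median was 0.01. Itga3, an integrin chain that binds laminin (1.22 ± 0.14), Nanos2, an RNA-binding protein of germ cells (1.19 ± 0.13), the actin-associated Fam107a (1.13 ± 0.16), Apoc1, an apolipoprotein (1.04 ± 0.23), and Zfpm1, a GATA cofactor (1.03 ± 0.14), followed. Calml4 (0.99 ± 0.13) and Rilp, an effector of lysosomal Rab7 (0.97 ± 0.11), closed the 12 largest higher differences of genes with a name. For Apoc1 the difference was 0.78 without hyperoxic 1, the array on which it was highest (7.80).

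Outside the vascular lists, Apod and Dleu2 joined Pcdh12 among the 12 largest lower differences. Apod, a lipid-binding lipocalin detected on no off-baseline array, was at least 2.63-fold lower. Dleu2, a long noncoding RNA, had 5.66, 5.88 and 4.71 off the baseline and 7.07, 6.83 and 6.79 in it (-1.48 ± 0.26, or -1.13 without hyperoxic 1).

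Photoreceptor and bipolar cell lists had lower means off the baseline, by less than the endothelial list. The mean level of 29 rod genes was 10.87 to 10.92 off the baseline and 11.02 to 11.12 in it, that of 14 cone genes 8.25 to 8.29 off the baseline and 8.51 to 8.55 in it, and that of 18 bipolar cell genes 9.35 to 9.47 off the baseline and 9.55 to 9.58 in it. The sets did not overlap in these 3 means, but this was not particular to them. The means of several other non-vascular lists did not overlap either. Among these, the Muller glia and cholesterol synthesis means were lower off the baseline, and the mean of NRF2 and antioxidant genes was higher. For Muller glia the median difference was 0.03, with 12 of 21 genes higher and 9 lower, so that the lower mean was not shared by most members. The means of amacrine and ganglion cell genes overlapped. Of the rod genes 2 were called lower (1 without hyperoxic 1), with a median of -0.16 (-0.11), and of the cone genes 2 were called lower (3 without it), with a median of -0.20 (-0.29). Rcvrn, the photoreceptor calcium sensor recoverin, had 10.71, 11.14 and 10.93 off the baseline and 11.62, 11.84 and 11.65 in it (-0.77 ± 0.14). Arr3, cone arrestin, had 8.49, 8.51 and 9.07 off the baseline and 9.55, 9.57 and 9.81 in it (-0.95 ± 0.17), with hyperoxic 1 nearest to the baseline set. Aipl1, a chaperone of photoreceptor phosphodiesterase, differed by -0.68 ± 0.16 and by 0.01 ± 0.15 at its second probe, and it was not called without hyperoxic 1. Kcne2, a potassium channel subunit, was detected on no off-baseline array and was at least 1.08-fold lower.

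Of the bipolar cell genes 1 was called, Bhlhe23, a transcription factor of rod bipolar cells (-0.54 ± 0.12), which was not called without hyperoxic 1, with a list median of -0.11 (-0.17 without it). None of 16 amacrine, 18 ganglion or 7 horizontal cell genes was called. The lowest p in those lists fell to Prox1 (0.57 ± 0.14), in both the amacrine and the horizontal cell lists, and to Eomes (-0.47 ± 0.16) in the ganglion cell list.

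Glial and immune lists were mostly not called. Of 21 Muller glia genes 1 was lower, the lipid transporter gene Abca8a (8.30, 8.20 and 8.21 off the baseline, 9.14, 9.01 and 9.01 in it, -0.82 ± 0.10). None of 9 astrocyte genes was called, and the one of lowest p was Pdgfra (0.69 ± 0.19). Of 22 gliosis and LIF/STAT3 genes 2 were higher, the iron-binding lipocalin gene Lcn2 (6.96, 6.77 and 7.43 off the baseline, 6.21, 5.88 and 6.34 in it, 0.91 ± 0.17) and the transcription factor gene Cebpb (0.76 ± 0.15). Gfap, the glial filament that marks retinal stress, had 6.35, 6.41 and 5.99 off the baseline and 6.10, 6.31 and 5.91 in it, with overlapping sets. Of 15 microglia and macrophage genes 1 was higher, the class II gene H2-Ab1 (0.77 ± 0.18), with a list median of 0.21, and 1 further gene was called lower without hyperoxic 1. Of 6 myelin genes 1 was higher, Mbp (0.56 ± 0.11).

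Chaperone genes were lower in part. Of 27 heat shock genes 4 were called lower (14.8%, against 2.72% of all tested genes) and 0 higher, with a median of -0.31 (-0.22 without hyperoxic 1). Besides Serpinh1, they were Hspa5, Hsph1 and Hsp90b1, another chaperone of the endoplasmic reticulum (-0.70 ± 0.17). Hspa5, the main chaperone of the endoplasmic reticulum, had 5.16, 5.21 and 4.92 off the baseline and 5.49, 6.24 and 6.02 in it (-0.82 ± 0.18), with control 1 nearest to the off-baseline set. Hsph1, a cytosolic chaperone, had 9.38, 9.10 and 9.35 off the baseline and 9.98, 9.91 and 10.03 in it (-0.69 ± 0.11). Of 21 genes tested in the list of the unfolded protein response, ATF4 targets included, 4 were lower (19.0%), and 3 without hyperoxic 1. Hspa5 is in this list too and was counted in both. Also among the 4 were Pdia6 (-0.79 ± 0.15), a disulfide isomerase, and Xbp1 (10.11, 10.15 and 10.11 off the baseline, 10.74, 10.71 and 10.70 in it, -0.59 ± 0.09), a transcription factor of that response.

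Of 21 glycolysis genes 3 were lower and 0 higher, with a median of -0.01. Pgk1, phosphoglycerate kinase, had 11.46, 11.46 and 11.41 off the baseline and 11.97, 12.07 and 11.93 in it (-0.55 ± 0.10). Pfkl, a phosphofructokinase chain, differed by -0.55 ± 0.12, and Pgam1, phosphoglycerate mutase, by -1.14 ± 0.26 with a wide baseline spread of 6.11 to 7.24. Of 36 tested genes listed as other targets of hypoxia-inducible factors, 4 were lower and 2 higher, with a median of -0.10. The lower ones were Higd1a, a mitochondrial protein (-0.94 ± 0.17), P4ha1, a collagen prolyl hydroxylase chain (-0.54 ± 0.12), Pdgfb, and Anxa2, a membrane-binding annexin (-0.85 ± 0.12), whose second probe differed by 0.00 ± 0.10. The higher ones were Selenbp1 and P4ha2, a sister chain of P4ha1 (0.58 ± 0.12), so that these related enzymes lay on opposite sides.

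The remaining lists held few called genes. Of 22 proliferation genes 1 was lower, the replication helicase gene Mcm6 (-0.90 ± 0.11), with 0.06 ± 0.19 at its second probe, and 1 was called higher without hyperoxic 1. Of 16 p53 targets 1 was higher, the cell cycle inhibitor gene Cdkn1a (0.62 ± 0.10). Of 8 inflammatory genes 1 was lower, Tnfaip3, an inhibitor of NF-kB (-0.75 ± 0.14), with 2 called higher without hyperoxic 1, and of 16 interferon-stimulated genes 2 were lower, Ifitm3 (-0.88 ± 0.19) and Ifitm1 (-0.53 ± 0.12), the last of which was not called without hyperoxic 1. None was called of 55 oxidative phosphorylation, 28 NRF2 and antioxidant, 17 immediate early, 17 cholesterol synthesis and 15 circadian clock genes. Their genes of lowest p were Atp5e (-0.68 ± 0.17), Txnip, Klf2 (-0.64 ± 0.16), Tm7sf2 (-0.42 ± 0.12) and Cry2 (0.41 ± 0.11). Hmox1, heme oxygenase, differed by 0.30 ± 0.14 and was not called.

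**Figure D4:**
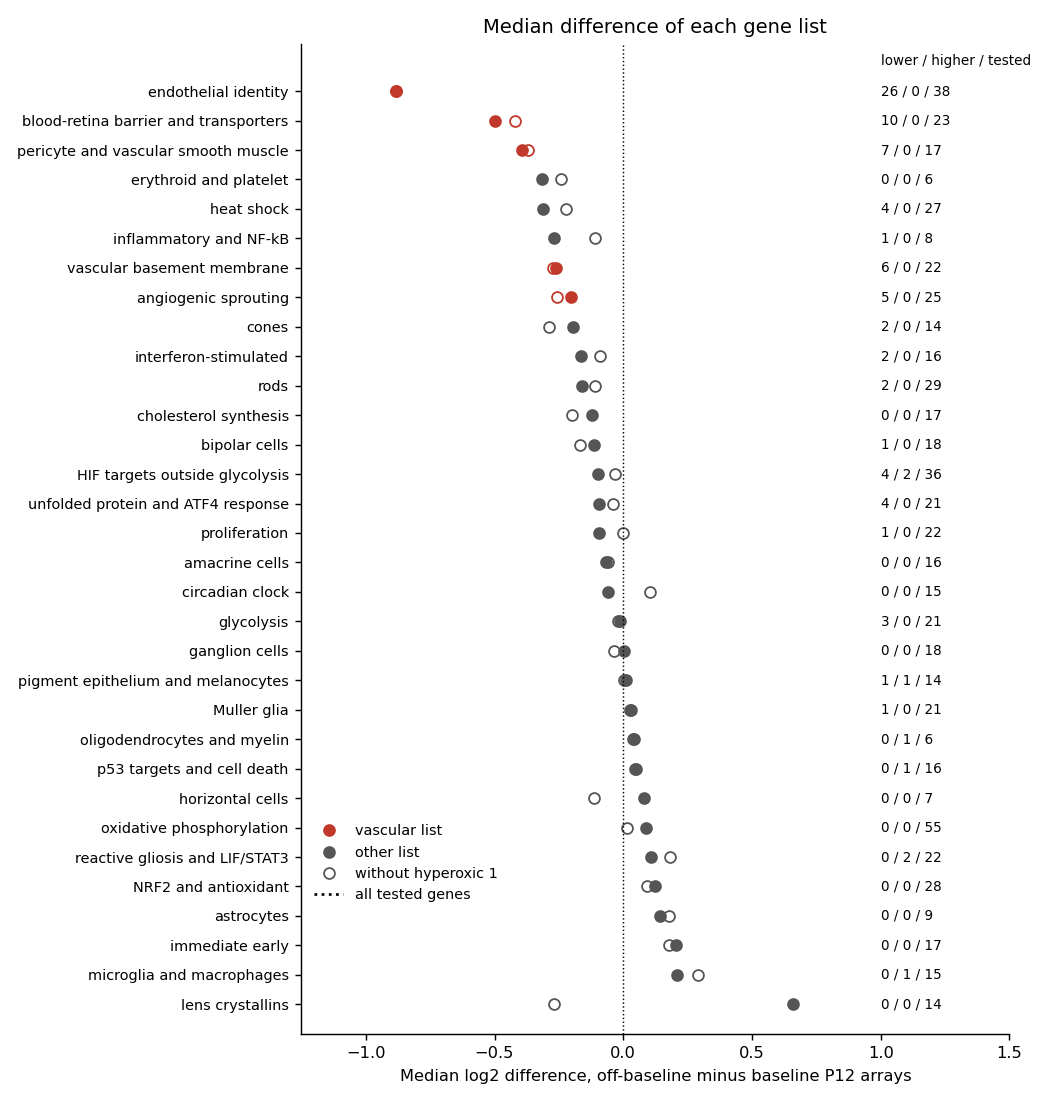
Median log2 difference, off-baseline minus baseline P12 arrays, of 32 gene lists, with filled points for all arrays, open points without hyperoxic 1, and counts of genes called lower, called higher and tested at the right. The endothelial list had the lowest median, -0.88, and the crystallin median was 0.66 with hyperoxic 1 and -0.27 without it.

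Crystallins were uneven between arrays. These lens proteins had a list mean of 5.63 and 6.64 on control 2 and control 3 and of 9.05 on hyperoxic 1, of 9.99, 7.64 and 7.52 on the P12.5 arrays, and of 6.19, 6.79 and 6.34 on the baseline arrays. Among the P12 arrays the sign of the set difference depended on hyperoxic 1. The median difference of 14 tested genes was 0.66 with hyperoxic 1 and -0.27 without it, and 0 were called. Cryab, the gene of lowest p among them, differed by 0.24 ± 0.20. Lens material on these arrays and its part in other differences were not tested. The 6 tested erythroid and platelet genes had 0 calls and a median of -0.31, and Hbb-bs, adult beta globin, differed by -1.27 ± 0.48.

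The set difference was also taken inside each label. Among control arrays it is control 2 and 3 minus control 1, and among hyperoxic arrays it is hyperoxic 1 minus hyperoxic 2 and 3. The endothelial list had medians of -0.85 among the control arrays and -0.90 among the hyperoxic arrays. The barrier list had -0.28 and -0.64, the sprouting list -0.21 and -0.34, the pericyte list -0.23 and -0.39 and the basement membrane list -0.28 and -0.32 in the same order. Each of the 5 lists was thus lower off the baseline within both labels. Of the 121 tested vascular genes 82 (67.8%) were lower in both, against 31.7% of all tested genes. For Rgs5 the difference was -1.87 among control arrays and -2.86 among hyperoxic arrays, and for Slc38a5 -1.93 and -1.87.

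**Figure D5:**
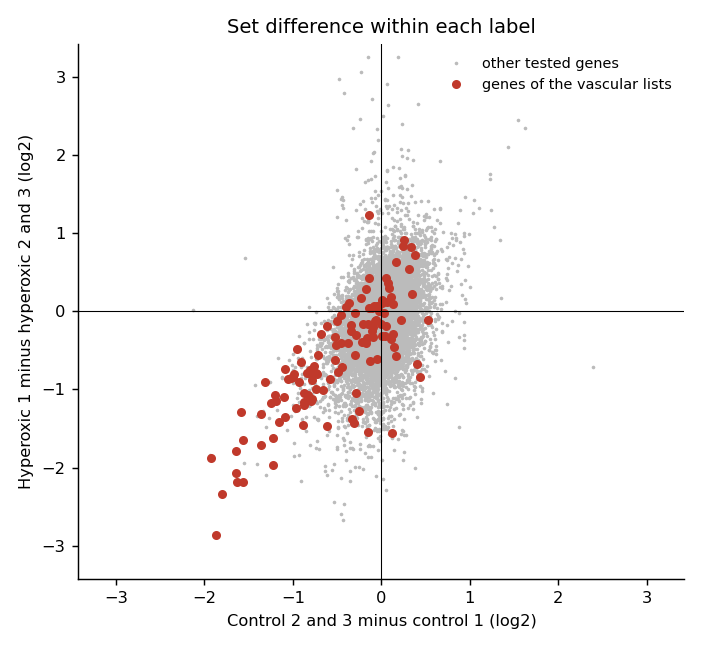
Set difference of each tested gene on the log2 scale, among the hyperoxic arrays (vertical) against among the control arrays (horizontal), with genes of the vascular lists in red. Of the 121 vascular genes 82 lay below 0 on both axes, against 31.7% of all tested genes.

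Because labels and sets cross, the label could be tested beside the set. With a term for hyperoxic against control added to the set means, limma called 0 of 21201 probes for the label, with 3711 at an unadjusted p under 0.05 and a lowest adjusted p of 0.182. In that same fit, 1275 probes were called between the sets. With no label term, 753 probes (3.55%) were called between them. A missed threshold with 3 arrays a set does not show that the label has no effect. Without control 1 the label term called 4538 probes, but the baseline set then holds hyperoxic arrays alone, and the term compares hyperoxic 1 with control 2 and 3.

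The P12.5 arrays, which the split did not use but which share in limma's estimate of the spread, were set beside both P12 sets. For the endothelial list their mean levels of 6.68 to 6.77 lay between the off-baseline and the baseline arrays, nearer to the off-baseline range. The P12.5 mean was nearer to the off-baseline mean than to the baseline mean at 64 of the 121 tested vascular genes (52.9%), close to the 47.9% of all tested genes. Among called genes it was nearer at 41 of the 50 vascular ones, at 214 of the 312 called lower genes (68.6%), and at 143 of the 182 called higher genes (78.6%). Slc38a5 had 6.34, 6.81 and 6.31 on the P12.5 arrays, below all P12 arrays, and Selenbp1 had 9.86, 9.51 and 9.71, above all of them. Cd93, at 7.37, 7.62 and 7.49, lay between the P12 sets.

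Other genes set the P12.5 arrays apart from both P12 sets. Vegfa had 10.68, 10.73 and 10.56 at P12.5, above all 6 P12 arrays. Adm had 6.66, 6.43 and 6.45 at P12.5, against 5.50, 5.08 and 5.05 off the baseline and 5.18, 5.48 and 5.34 in it. Anxa2 had 10.03, 9.99 and 9.80 at P12.5, against 8.27, 8.29 and 8.32 off the baseline and 9.27, 8.96 and 9.18 in it, so that here the baseline set was the nearer one. These levels also span 12 hours of age and of the day.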

How the data were processed

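Per the labels' protocols, total retinal RNA was made into biotin-labelled cRNA for Illumina arrays. The deposited raw intensity of each probe is linear and was taken as uncorrected and unscaled, since medians differ between arrays. A deposited detection p-value accompanies each signal and was used with the array whose signal it follows. The authors' processed table gives each probe a linear ratio, which chose the sets and served as an alternative. How the arrays were scanned and scaled is not given in the sources at hand.

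Of 46640 probes, 27 were at 0 on every array and left out. Of the rest, 32781 had 1 gene symbol in the platform annotation, 55 several and 13777 none. A current gene identifier was found for 32709. Intensities were corrected and quantile normalized on the log2 scale by neqc (limma 3.58.1, R 4.3.3) with an offset of 16, which shrinks fold changes of dim genes. The 21201 probes with a detection p under 0.05 on at least 3 of 9 arrays were tested. limma (lmFit, eBayes) fitted 1 mean for each P12 set and 1 for P12.5 to all 9 arrays, two-sided, with Benjamini-Hochberg adjustment over all probes. Where no array of a set detected a probe, its fold is a lower bound, taken against the lowest detected signal there or its own signal if that was greater. Where only some arrays of a set detected a probe, no bound was taken. Precision is limited by the small number of arrays. The pipeline was tested on simulated data.

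The sets and the 32 gene lists were chosen with earlier results of these data known. The text names the 12 largest lower and 12 largest higher called genes, up to 6 called members of each vascular list and 3 of each other list by lowest p, the gene of lowest p where none was called, and a fixed set of vessel, glial and sex-linked genes. Eng, Cd34, Hsp90b1, Higd1a, P4ha1, P4ha2 and the retinal check genes fall outside that rule and were added after their values were seen, as were the ERSE search and the genes of the closing observations. Alternatives covered background, offset, scaling, the deposited ratios, probe filters, the arrays and covariates in the fit, and each P12 array left out.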

Additional observations from a re-analysis of the deposited data

Results flagged for a closer look

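For 5 of the genes named here the set difference ran in opposite directions within the labels, with every off-baseline array on one side among control arrays and on the other among hyperoxic arrays. The contrast between the labels was not tested. Kdr, the VEGF receptor, differed by 0.40 among control arrays and by -0.68 among hyperoxic arrays. It was detected on 2 of the 3 off-baseline arrays. Its hyperoxic difference rests on hyperoxic 1, where its level was lowest and may lie near the detection limit. Slc2a1, the glucose transporter, differed by 0.14 among control arrays and by -0.29 among hyperoxic arrays. Opn1mw, the cone opsin gene, differed by -0.15 among control arrays and by 0.03 among hyperoxic arrays. Xist differed by -1.54 among control arrays and 0.68 among hyperoxic arrays, and the Y-linked Eif2s3y by 2.39 and -0.71 in the same order. Control 1 and control 3 had the female pattern of these last genes, as did hypoxic 2.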

How the results depend on the processing

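The count of 753 probes called between the P12 sets moved by over 1.5 times under many alternatives. It was 1153 with no background correction, 1241 with a neqc offset of 50, 333 with median centring, 35 with the deposited ratios and 1234 (668 higher, 566 lower) for probes detected on all 6 P12 arrays. It was 159 with the 6 P12 arrays only, 2026 with array weights, 1275 with the label as a covariate and 454 with the sex pattern as a covariate. Leaving out 1 array gave 184 to 908, with 184 without hyperoxic 2, 218 without hyperoxic 3 and 409 without control 2. Same-numbered control and hyperoxic arrays did not deviate together from their set means (r = -0.01, -0.02 and -0.21). So few pairs, under labels that may have been exchanged, cannot show whether the numbers pair the samples. With the replicate number as a block the set count was 1172, and the label count, 0 without it, was 2147. The label count was 1 with a neqc offset of 50 and 0 to 4538 with 1 array left out. The causes were not tested.

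The deposited ratios chose the sets, so directions kept under them are not counted. The 71 called genes picked by the naming rule, and the 20 other called genes the text names, kept their direction under every other alternative in which they were tested. Of the 71, calls were lost at 52 with the deposited ratios, 26 with the 6 P12 arrays only, 18 with median centring, 9 with no detection filter, 7 with the sex covariate and 1 with the label covariate, and at 3 to 24 with 1 array left out. The vascular list medians stayed below 0 in 21 settings without the ratios, from -1.11 to -0.57 for the endothelial list and from -0.62 to -0.08 for the pericyte list.

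Genes that were not called reversed. Kdr was at 0.011 with normexp and with no background correction, 0.013 with an offset of 50, 0.01 with the detection column beside each signal, and 0.285 with array weights. Angpt2 was at -0.335 with median centring and -0.238 with the ratios, Cryab at -0.001 and -0.143, Cspg4 at -0.124 and -0.076, and Gfap at -0.126 and -0.066 in the same order. With the ratios Cry2 was at -0.002 and Flt1 at -0.008. With array weights Adm was at 0.008 and Cryab at -0.023. With the label as a covariate Eif2s3y was at 0.841 and Xist at -0.429. With 1 array left out, Kdr ranged from -0.254 to 0.304, Angpt2 from -0.066 to 0.117, Cryab from 0.00 to 0.363, Slc2a1 from -0.131 to 0.047, Eif2s3y from -1.744 to 0.756 and Xist from -0.498 to 1.858. Dim probes limit what can be said of low genes, since the detected share was lowest on hyperoxic 1.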

Other observations

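Histone genes of the replication-dependent clusters were in no list and were looked at after their values were seen. Of 41 tested, 22 were called lower off the baseline, 0 were called higher and 19 were not called, against 2.72% of all tested genes called lower. Their median difference was -0.61, or -0.58 without hyperoxic 1, with 26 called lower in that case. The mean level was 7.81, 7.71 and 7.69 on control 2, control 3 and hyperoxic 1, 7.86, 7.81 and 7.82 on the P12.5 arrays, and 8.29, 8.41 and 8.32 on control 1, hyperoxic 2 and hyperoxic 3. H2bc15 had 8.30, 8.30 and 8.43 off the baseline and 9.24, 9.63 and 9.56 in it, and the linker histone gene H1f2 had 10.43, 10.47 and 10.44 off the baseline and 11.57, 11.37 and 11.21 in it. The median stayed between -0.86 and -0.47 in 20 settings without the deposited ratios, but 0 of the genes were called with the deposited ratios and 10 with the 6 P12 arrays only, without hyperoxic 2 or without hyperoxic 3. Many of these genes are near-identical copies, so that their probes may share signal and are not independent.

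Other called genes outside the lists, also picked after their values were seen, lay on both sides. Lower off the baseline were Katnal2 (-1.47 ± 0.23), the tubulin gene Tubb6 (-1.40 ± 0.19), the annexin gene Anxa3 (-1.29 ± 0.10), the long noncoding RNA Neat1 (-1.20 ± 0.25) and Igfbp7, a secreted IGF-binding protein (-1.14 ± 0.13). Higher were Cirbp, a cold-inducible RNA-binding protein gene, by 0.58 ± 0.13, and the related Rbm3 by 0.76 ± 0.14, though its second probe differed by -0.50 ± 0.13. Also higher were the glucocorticoid-induced Fkbp5 by 0.73 ± 0.14 and Hif3a, a subunit that can restrain hypoxia-inducible factors, by 0.73 ± 0.11, with -0.08 ± 0.16 at its second probe. Hif3a had 7.67, 7.88 and 7.79 off the baseline, 8.19, 8.05 and 8.22 on the P12.5 arrays and 6.94, 7.04 and 7.16 in the baseline set.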
